A study of Mus musculus with 8 samples.

Results

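The insulin receptor pathway was followed in brown adipose tissue (BAT) through 10 genes chosen by name and found by their Ensembl identifiers, of 44674 genes in the table. They were *Insr*, *Irs1*, *Irs2*, *Pik3r1*, *Pik3ca*, *Akt1*, *Akt2*, *Tbc1d4*, *Slc2a4* and *Foxo1*, and all 10 passed the filter on low counts that left 14489 genes. BAT came from 4 control mice and 4 Ox1RΔSERT mice, male mice, the controls being littermates, that received a high-fat diet from week 4 to week 18 and were sampled at the end of a hyperinsulinemic-euglycemic clamp, in which insulin is infused while glucose is given to hold blood glucose steady. Both groups carried floxed alleles of the orexin receptor gene (Ox1R fl/fl). Ox1RΔSERT mice also carried Sert-Cre, which is driven by the serotonin transporter gene, and control mice carried no Cre. The deletion was made in serotonergic neurons, so transcripts of the receptor in BAT do not check the genotype, and these transcripts were at 5 counts or fewer in every mouse. Each library held 1 mouse. All 8 mice had received insulin, so the comparison is between genotypes under insulin and holds no state without it.

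Insulin binds its receptor, a tyrosine kinase encoded by *Insr*, and the receptor phosphorylates the adapters encoded by *Irs1* and *Irs2*. The adapters recruit phosphoinositide 3-kinase, made of a regulatory subunit such as that of *Pik3r1* and a catalytic subunit such as that of *Pik3ca*, and its lipid product brings the kinases of *Akt1* and *Akt2* to the membrane. In fat cells, Akt phosphorylates the product of *Tbc1d4*, which releases vesicles that carry the glucose transporter of *Slc2a4* to the surface, and it keeps the transcription factor of *Foxo1* out of the nucleus. Much of this signalling runs through phosphorylation, which RNA does not measure.

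In counts, no gene of the pathway passed the test between genotypes. In Ox1RΔSERT mice *Irs1* was 36.3% lower, *Slc2a4* 25.5% lower, *Insr* 20.2% lower and *Foxo1* 10.2% lower. *Irs2*, *Pik3r1*, *Pik3ca*, *Akt1*, *Akt2* and *Tbc1d4* differed by 3.33% or less. Without Ox1RΔSERT mice 11601 and 11708, which stood apart in markers of cell types, the 4 log2 fold changes moved from -0.65, -0.42, -0.33 and -0.15 to -0.50, -0.16, -0.15 and 0.07, in the same order. In transcript length, *Pik3ca* stood apart from the other 9 genes. Its effective length, the mean length of its transcripts weighted by their abundance, was 23.7% shorter in Ox1RΔSERT mice, and the groups were far apart. An exact permutation test over mice did not pass after adjustment over the 10 genes (adjusted p = 0.143). With 4 mice in each group its lowest possible p is 0.0286, so a single separated gene could not pass after this adjustment. A limma test over all genes, added after these values were seen, called *Pik3ca* (adjusted p = 0.0417), but in only 1 of the fits with mice left out. *Pik3ca* (ENSMUSG00000027665) lies on chr3:32397671-32468486 in GRCm38, on the plus strand, and GENCODE M21 lists 4 transcripts for it. Pik3ca-204, of 440 bases, is annotated as a transcript with a retained intron. The 3 protein-coding transcripts end at 2 points of the same last exon, which starts at 32462561. Pik3ca-201, of 8917 bases, ends at 32468486, while Pik3ca-202, of 6171 bases, and Pik3ca-203, of 6689 bases, end 2379 bases earlier, at 32466107. Their last 30 bases are shown because they mark the long and the short end of the gene. Capitals mark AATAAA, the common polyadenylation signal.
Pik3ca-201, chr3:32468457-32468486: ttgtcatttggtcttagctgAATAAAatct
Pik3ca-202 and Pik3ca-203, chr3:32466078-32466107: aacagctgctcataaagtattttgtgtaaa
The motifs AATAAA and ATTAAA were searched on the transcript strand. AATAAA was found at the long end, with 4 bases after it, and neither of these 2 motifs at the short end. Other forms of the signal were not searched, and use of either end was not tested. Of 58793 protein-coding transcripts, 35.5% hold AATAAA in their last 30 bases and 9.74% hold ATTAAA.

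Libraries held 35852708 to 50063339 estimated counts. Mitochondrially encoded genes took 40.0% to 46.8% of them in control mice and 33.6% to 44.6% in Ox1RΔSERT mice. Normalized values are CPM, counts scaled to the size of the library, after TMM scaling, and n is 4 mice in each group throughout. Markers of brown adipocytes were present in all 8 mice, and all 8 of the list were above 3 counts in each. Ox1RΔSERT mice 11601 and 11708 stood apart. Their summed normalized value of 10 macrophage and leukocyte markers was 907 and 702, against 111 to 251 in control mice and 183 and 197 in Ox1RΔSERT mice 11243 and 11613. The sum of 5 fibroblast markers was 5374 and 2499 in these mice, against 361 to 987 in control mice, and the sum of 8 brown adipocyte markers was 4270 and 4217, against 6225 to 8351 in control mice and 6500 and 6137 in Ox1RΔSERT mice 11243 and 11613, so that mouse 11613 was also just below all control mice. For 7 general adipocyte markers the sum was 7032 and 6560 in these mice, against 8191 to 9810 in control mice and 8608 and 8856 in the other Ox1RΔSERT mice. Of the leukocyte list, 8 of 10 markers were above 3 counts in every mouse. The sum of 9 skeletal muscle markers was high in control mouse 11253, at 1908, and Ox1RΔSERT mouse 11708, at 2595, and 27.7 to 242 in the other 6. In such bulk tissue, fewer cells of a type and less RNA per cell cannot be told apart, and the part of these markers in the results below was not tested.

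With edgeR's quasi-likelihood test at an adjusted p under 0.05, 0 of the 10 genes were called, and the background was 0% (0 of 14489 genes). At an unadjusted p under 0.05 the test gave 2 of the 10 genes, *Irs1* and *Insr*, against 15.2% of all genes tested, so this share was near the background. DESeq2 called 265 genes, 1.75% of 15119, and 0 of the 10. The median log2 fold change of the 10 genes was -0.04, and that of all genes tested was 0.0021. Values were lower in Ox1RΔSERT mice for 8 of the 10 genes, against 49.6% of all genes tested, but 4 of the 8 had log2 fold changes between -0.05 and -0.0048. The median absolute log2 fold change was 0.04 for the 10 genes and 0.19 for all genes tested.

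**Figure D1:**
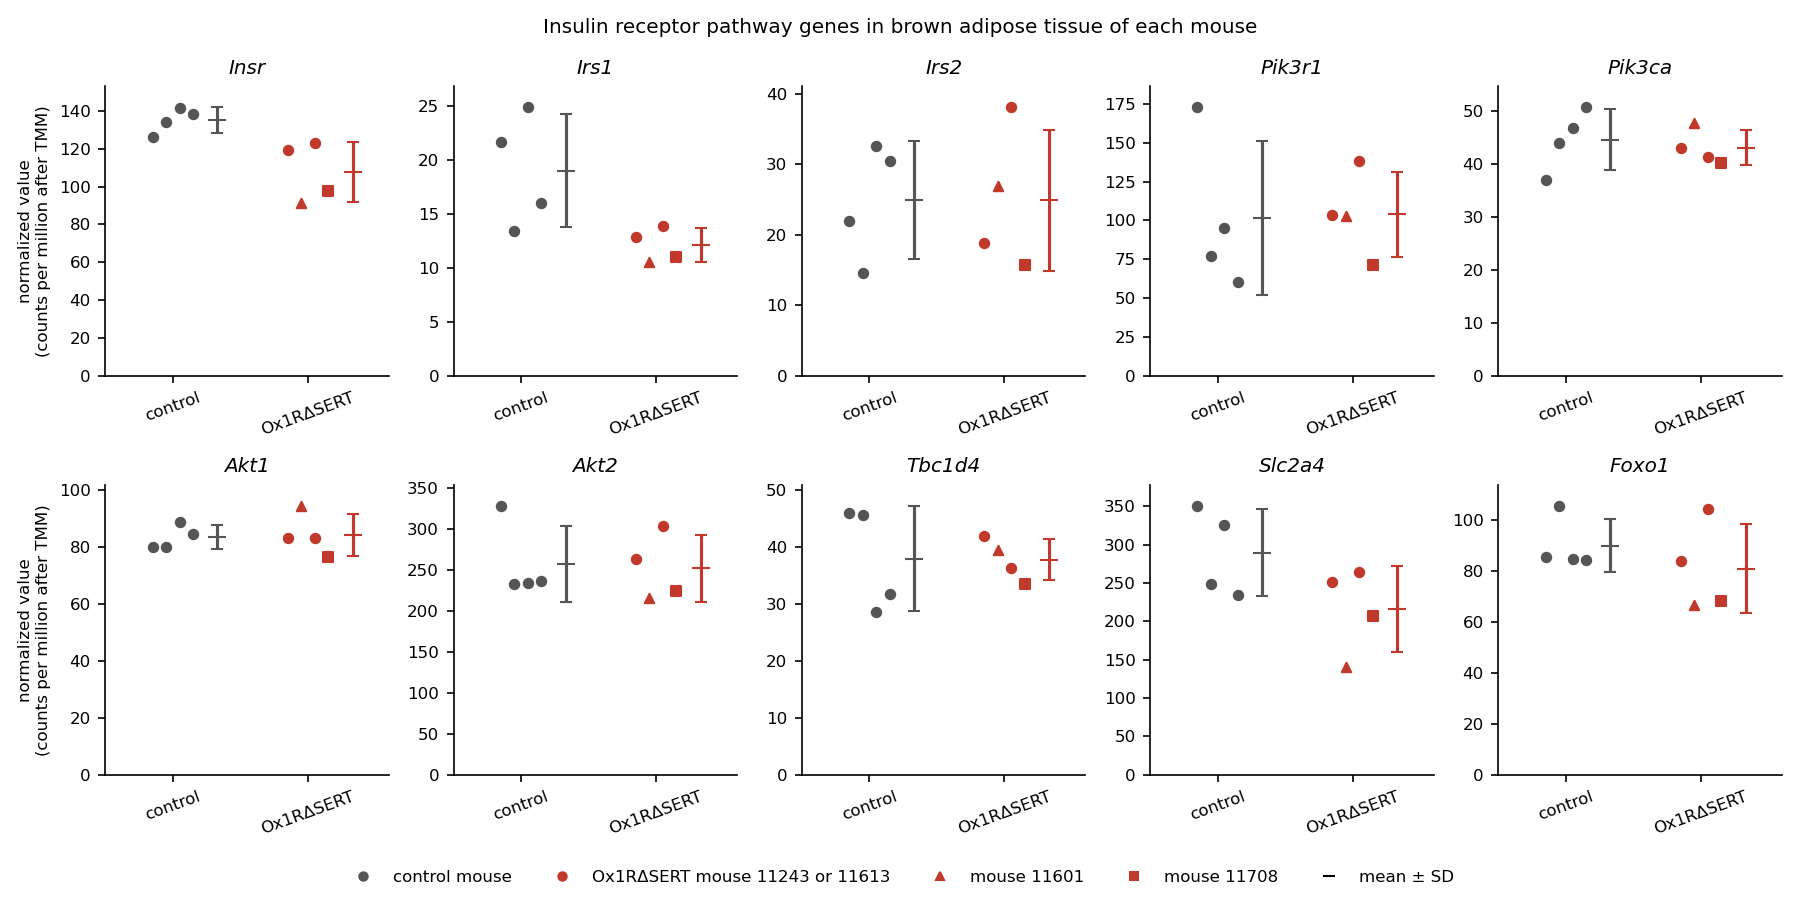
Normalized value (CPM after TMM) of each gene in each mouse, with control mice in grey and Ox1RΔSERT mice in red, mouse 11601 as a triangle and mouse 11708 as a square; bars give the mean ± SD of 4 mice. The groups do not overlap for *Insr*, where Ox1RΔSERT mice range from 91.1 to 123 and control mice from 126 to 142, and they overlap for the other 9 genes.

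The receptor gene *Insr* (ENSMUSG00000005534, chr8:3122061-3279617, minus strand) reached 126, 134, 142 and 138 (normalized values) in control mice 10684, 11253, 11560 and 11563, respectively. For Ox1RΔSERT mice 11243, 11601, 11613 and 11708 the values read 119, 91.1, 123 and 97.6. All 4 Ox1RΔSERT mice were below all 4 control mice, but Ox1RΔSERT mouse 11613 and control mouse 10684 were close, and mice 11601 and 11708 were the lowest. The means were 108 ± 15.9 and 135 ± 6.75 (SD), a log2 fold change of -0.33 (SE 0.12, 95% interval -0.59 to -0.06). A two-sided exact permutation over mice gave p = 0.0286, and no lower p is possible with 4 mice in each group. The adjusted p was 0.316 in edgeR and 0.192 in DESeq2. Among all genes tested, 2.81% had values in Ox1RΔSERT mice that lay below all control mice without overlap. Without mice 11601 and 11708 the log2 fold change of *Insr* was -0.15 (SE 0.09). On the TPM scale, which divides by length and is a share of all transcripts, the gene was at 11.0 ± 1.47 in Ox1RΔSERT mice and 10.9 ± 0.845 in control mice (SD). On log2(TPM + 1) its difference was 0.011, but the median of all genes tested was 0.23 higher in Ox1RΔSERT mice. Relative to that median *Insr* was at -0.22.

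Of the adapter genes, *Irs1* (ENSMUSG00000055980, chr1:82233101-82291416, minus strand) was at 21.7, 13.4, 24.8 and 16.0 in control mice 10684, 11253, 11560 and 11563, and at 12.9, 10.6, 13.9 and 11.0 in Ox1RΔSERT mice 11243, 11601, 11613 and 11708. Of the Ox1RΔSERT mice, 3 were below all control mice, and mouse 11613 was just above control mouse 11253. The log2 fold change was -0.65 (SE 0.20, 95% interval -1.10 to -0.20), the largest of the 10 genes, and the exact permutation p was 0.0571. The adjusted p was 0.316 in edgeR and 0.09 in DESeq2. DESeq2 called *Irs1* in 2 of its 8 fits without 1 mouse, namely without control mouse 11253 (adjusted p = 0.0301) and without Ox1RΔSERT mouse 11613 (adjusted p = 0.044). Without mice 11601 and 11708 the log2 fold change was -0.50 (SE 0.25). Exons of *Irs1* share 2822 of 9144 bases with *Gm9747* on the opposite strand, which had 3 counts or fewer in each mouse.

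*Irs2* (ENSMUSG00000038894, chr8:10984681-11008458, minus strand) was at 22.0, 14.5, 32.6 and 30.5 in the control mice and at 18.8, 26.9, 38.0 and 15.7 in the Ox1RΔSERT mice, in the same order. Its groups were interleaved, with means of 24.9 in each and SDs of 8.31 and 9.99. The log2 fold change was -0.0048, with a wide 95% interval from -0.74 to 0.73. Exons of *Irs2* share 162 bases with *9530052E02Rik* on the opposite strand, at 4 counts or fewer.

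Phosphoinositide 3-kinase was represented by a regulatory and a catalytic subunit. *Pik3r1* (ENSMUSG00000041417, chr13:101680563-101768217, minus strand), which encodes regulatory subunits, was the most variable of the 10 genes among control mice, at 173, 77.1, 95.2 and 60.6, and it was at 103, 103, 138 and 71.3 in Ox1RΔSERT mice. Control mouse 10684 alone was above all Ox1RΔSERT mice. The log2 fold change was 0.03 (SE 0.32, 95% interval -0.70 to 0.77), and without control mouse 10684 it was 0.42. *Pik3ca*, which encodes a catalytic subunit, was at 36.9, 43.8, 46.7 and 50.6 in control mice and at 42.9, 47.8, 41.3 and 40.2 in Ox1RΔSERT mice, so that the groups overlapped. The log2 fold change of its counts was -0.05 (SE 0.11, 95% interval -0.30 to 0.20).

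The kinase genes differed between genotypes by less than the spread between mice. *Akt1* (ENSMUSG00000001729, chr12:112653821-112674884, minus strand) was at 83.4 ± 4.18 in control mice and 84.2 ± 7.35 in Ox1RΔSERT mice (SD), a log2 fold change of 0.01 (SE 0.09, 95% interval -0.19 to 0.21). *Akt2* (ENSMUSG00000004056, chr7:27591552-27640826, plus strand), the form known for insulin action on glucose in fat, was at 258 ± 46.7 and 252 ± 40.7 (SD), a log2 fold change of -0.03 (SE 0.16, 95% interval -0.39 to 0.33). For *Akt2*, control mouse 10684 and Ox1RΔSERT mouse 11613 were the highest, at 328 and 305, so the spread lay within both groups.

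Next in the pathway, *Tbc1d4* (ENSMUSG00000033083, chr14:101442360-101609191, minus strand) encodes the Rab GTPase-activating protein that holds GLUT4 vesicles inside the cell. It was at 45.9, 45.7, 28.5 and 31.7 in control mice and at 41.8, 39.4, 36.3 and 33.4 in Ox1RΔSERT mice. All Ox1RΔSERT values lay inside the range of the control mice, and the log2 fold change was -0.01 (SE 0.17, 95% interval -0.39 to 0.38). *Slc2a4* (ENSMUSG00000018566, chr11:69942539-69948188, minus strand), which encodes GLUT4, was at 350, 249, 325 and 234 in control mice and at 251, 140, 265 and 206 in Ox1RΔSERT mice. Mice 11601 and 11708 were below all control mice, and the other 2 Ox1RΔSERT mice lay between the lower and the upper pair of control mice. The log2 fold change was -0.42 (SE 0.22, 95% interval -0.92 to 0.07), with an adjusted p of 0.366 in edgeR and an exact permutation p of 0.171. It was -0.27 without mouse 11601 and -0.16 (SE 0.18) without mice 11601 and 11708.

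*Foxo1* (ENSMUSG00000044167, chr3:52268336-52353221, plus strand) encodes a transcription factor that insulin restrains. It was at 85.4, 105, 84.7 and 84.2 in control mice and at 83.9, 66.7, 104 and 68.2 in Ox1RΔSERT mice, so 3 of the Ox1RΔSERT mice were below all control mice and mouse 11613 was near the highest. The log2 fold change was -0.15 (SE 0.16, 95% interval -0.51 to 0.20). It was -0.30 without mouse 11613, between -0.09 and -0.07 without mouse 11253, 11601 or 11708, and 0.07 (SE 0.14) without both 11601 and 11708. Exons of *Foxo1* share 674 bases with *Gm20402* on the opposite strand, at 1 count or fewer.

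**Figure D2:**
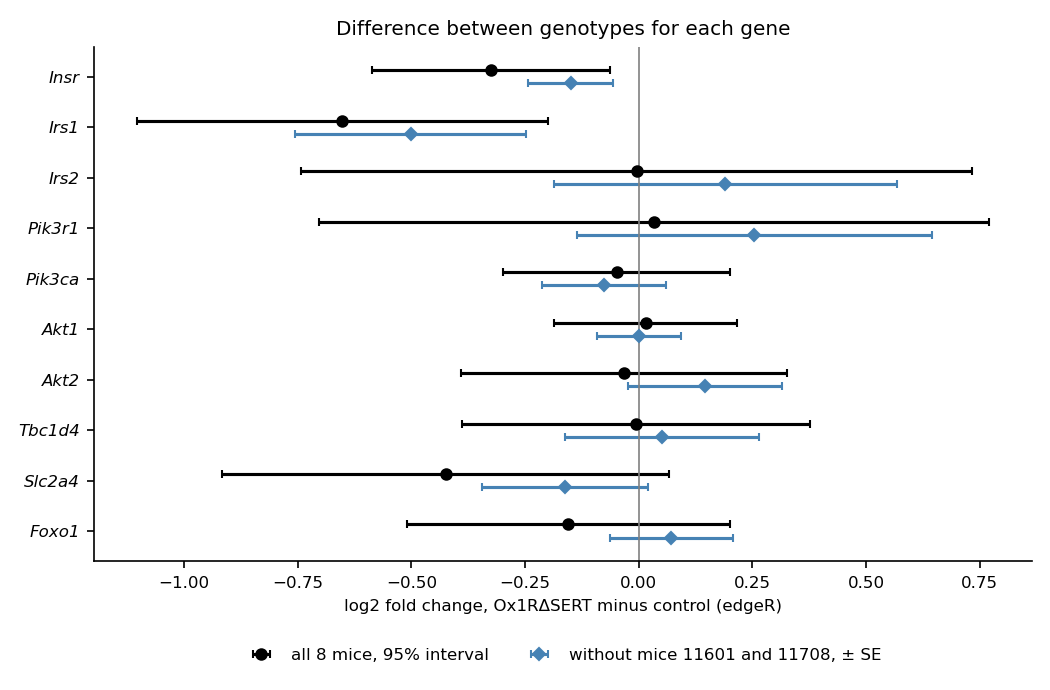
Log2 fold change of each gene, Ox1RΔSERT minus control, from edgeR, with all 8 mice (circles, 95% interval) and without mice 11601 and 11708 (diamonds, ± SE). With all mice the intervals of *Insr* and *Irs1* lie below 0, and without these 2 mice *Insr* is at -0.15, *Irs1* at -0.50, *Slc2a4* at -0.16 and *Foxo1* at 0.07.

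Levels could be compared between genes in TPM. In control mice *Slc2a4* was the highest of the 10, at 111 ± 25.1 TPM (SD), followed by *Akt2* at 69.6 ± 14.9, *Akt1* at 26.0 ± 2.24, *Pik3r1* at 14.7 ± 9.02, *Insr* at 10.9 ± 0.845 and *Foxo1* at 9.05 ± 0.46. Below them were *Irs2* at 6.19 ± 2.22, *Tbc1d4* at 6.07 ± 1.36, *Pik3ca* at 5.49 ± 0.832 and *Irs1* at 1.74 ± 0.526. BAT thus held more *Irs2* than *Irs1* transcripts, and more *Akt2* than *Akt1*, in each of the 8 mice. *Akt2* was above *Akt1*, *Foxo1* above *Irs2* and *Pik3ca* above *Irs1* in all 8 mice, whereas *Irs2* was above *Tbc1d4* in 4, *Tbc1d4* above *Pik3ca* in 2 and *Pik3r1* above *Insr* in 6. These neighbours did not keep one order.

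Ratios within a mouse do not depend on scaling between mice, and 6 were compared. The *Irs2*/*Irs1* ratio in TPM was 2.65, 3.05, 3.59 and 5.08 in control mice and 3.99, 6.82, 6.60 and 4.00 in Ox1RΔSERT mice, a log2 difference of 0.57 (exact permutation p = 0.114, 0.343 after Benjamini-Hochberg adjustment over the 6 ratios). Control mouse 11563 reached into the range of the Ox1RΔSERT mice. The ratio of *Insr* to *Igf1r*, the gene of the related IGF1 receptor, was 19.8, 20.2, 23.1 and 24.9 in control mice and 16.4, 11.1, 21.1 and 15.3 in Ox1RΔSERT mice, a log2 difference of -0.49 (exact permutation p = 0.0857, adjusted 0.343). Here 3 of 4 Ox1RΔSERT mice were below all control mice, and without mice 11601 and 11708 the difference was -0.24. The ratio of *Slc2a4* to *Slc2a1*, the gene of the insulin-independent transporter GLUT1, ranged from 15.8 to 66.0 in control mice and from 12.2 to 30.4 in Ox1RΔSERT mice, a log2 difference of -0.76 (exact permutation p = 0.171, adjusted 0.343). It was -0.41 without control mouse 10684 and -0.16 without mice 11601 and 11708. Exact permutation p-values were 0.771 for *Pik3r1*/*Pik3ca*, 0.971 for *Akt2*/*Akt1* and 0.4 for *Foxo1*/*Foxo3*, so 0 of the 6 ratios passed the test. The lowest possible p of this test is 0.0286, so a single ratio could not have passed after adjustment over the 6.

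Effective length was read from the deposited values themselves, as estimated counts divided by TPM, scaled within each mouse and set to 1 at the control mean. For a gene with several transcripts it falls when shorter transcripts take a larger share. It can also move where GENCODE M21 lists only 1 transcript, as for *Irs2*, which ran from 0.963 to 1.13 across the mice. What moved it in either case was not tested. For *Pik3ca* it was 0.989, 1.01, 1.01 and 0.993 for control mice 10684, 11253, 11560 and 11563, respectively. Ox1RΔSERT mice 11243, 11601, 11613 and 11708 followed at 0.776, 0.772, 0.716 and 0.786. All 4 Ox1RΔSERT mice lay far below all 4 control mice, and mice 11601 and 11708 were in the middle and at the top of their group. The log2 difference was -0.39 (SE 0.03), and the exact permutation p was 0.0286, or 0.143 after Benjamini-Hochberg adjustment over the 10 genes, so that 0 of the 10 passed this test. That unadjusted p is the lowest possible with 4 mice in each group. A single separated gene could therefore not pass after adjustment over 10, and the adjusted test could not decide on *Pik3ca* alone. For comparison, Pik3ca-203 has 75.0%, Pik3ca-202 69.2% and Pik3ca-204 4.93% of the bases of Pik3ca-201, so a larger share of any of them would shorten the mean. Their shares were not in the files used here, and the annotation release behind the deposited values is not given in the sources used here.

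**Figure D3:**
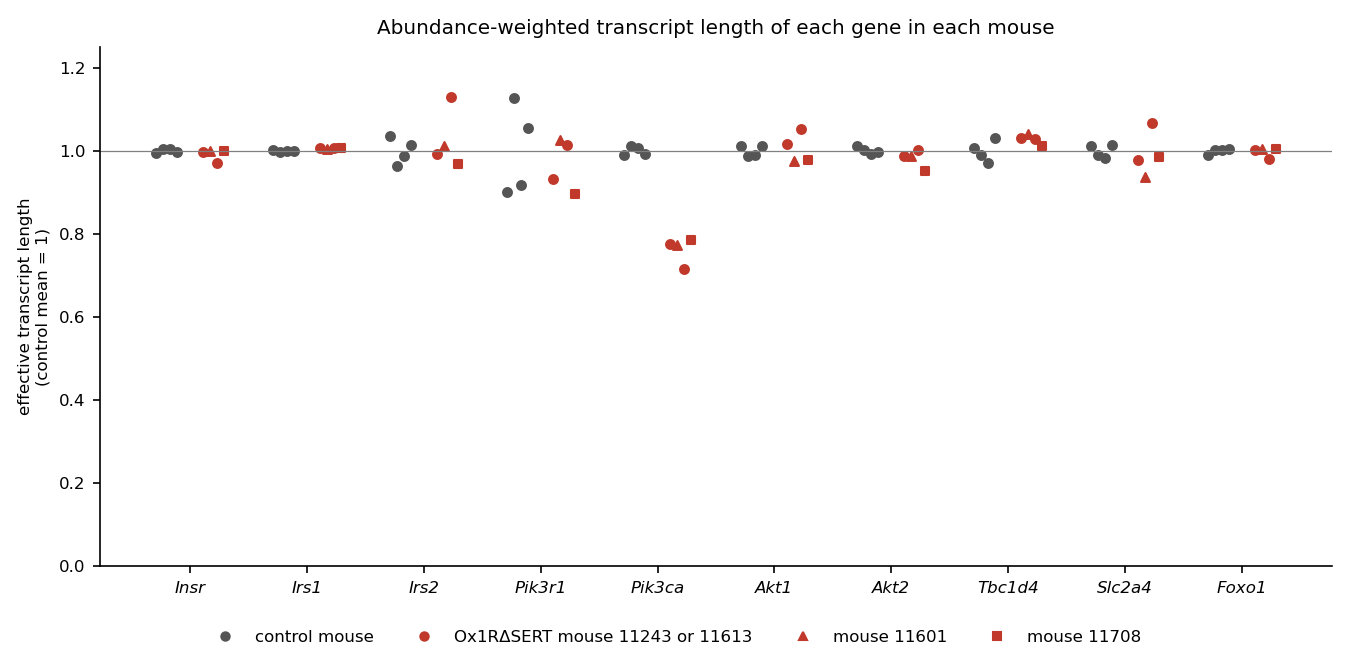
Effective transcript length of each gene in each mouse, relative to the mean of the control mice. For *Pik3ca* the Ox1RΔSERT mice sit between 0.716 and 0.786 and the control mice between 0.989 and 1.01, while for the other 9 genes all mice sit between 0.897 and 1.13.

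A test of log2 effective length over all 14489 genes with limma, added after the values of *Pik3ca* had been seen, gave *Pik3ca* an adjusted p of 0.0417. It was the 1 gene called (0.0069% of those tested), and the next adjusted p was 0.507. Without 1 mouse in turn, the log2 difference of *Pik3ca* stayed between -0.41 and -0.36, but its adjusted p was under 0.05 in only 1 of the 8 fits, that without Ox1RΔSERT mouse 11613 (0.00117), and lay between 0.0871 and 0.34 in the others. Without mice 11601 and 11708 the difference was -0.42 and the adjusted p was 0.377. The difference kept its size in these fits, and the call over all genes depended on which mice were used. Among all genes tested, 2.26% had effective lengths without overlap between the groups. By size alone, 1.11% of all genes tested had a log2 difference at least as large as that of *Pik3ca*, in either direction. By the gap between the groups, *Pik3ca* ranked 3. Of the 10 genes, *Irs1* was the other one, with a difference of 0.576% and a single annotated transcript, and its exact permutation p was also 0.0286 (adjusted 0.143). Apart from *Pik3ca*, the genes differed by 0.044 or less on the log2 scale.

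The shorter effective length moved the level of *Pik3ca* on a scale that divides by length. Its TPM was 4.80, 4.86, 5.74 and 6.56 in control mice and 6.67, 11.0, 9.04 and 8.86 in Ox1RΔSERT mice. All Ox1RΔSERT mice were above all control mice, though mouse 11243 was above control mouse 11563 by little. The share of all genes without overlap in TPM was not counted. With limma on log2(TPM + 1), 3038 of 14489 genes had an unadjusted p under 0.05. On this scale the difference of *Pik3ca* was 0.60 (limma, adjusted p = 0.236), and the median of all genes tested was itself 0.23 higher in Ox1RΔSERT mice. With transcript length as an offset in edgeR, which removes that shift, the log2 fold change of *Pik3ca* was 0.34 (adjusted p = 0.328) in place of -0.05. Of the genes within 1 Mb of *Pik3ca* that were tested, *Zmat3*, *Zfp639*, *Mfn1*, *Gnb4*, *Actl6a*, *Ndufb5*, *Pex5l*, *Mrpl47* and *Gm37123*, 0 of 9 had effective lengths without overlap. The share over all genes tested was 2.26%, so 9 genes are too few for this count to say anything about the region.

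**Figure D4:**
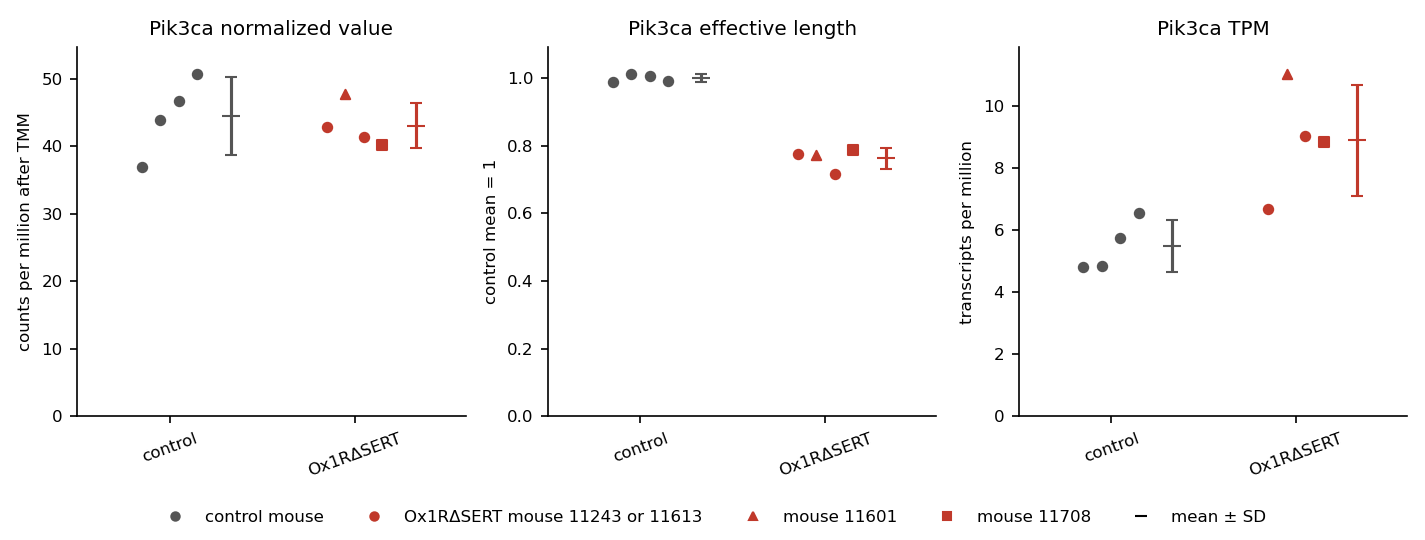
*Pik3ca* in each mouse as a normalized value (CPM after TMM, left), as effective length relative to the control mean (middle) and in TPM (right), with the mean ± SD of 4 mice. Counts overlap between genotypes, effective lengths are apart with means of 1 and 0.763, and TPM means are 5.49 in control mice and 8.90 in Ox1RΔSERT mice.

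Other genes of insulin signalling were taken from 8 lists of 100 genes in all, of which 95 were tested. edgeR called 0 of them at an adjusted p under 0.05. An unadjusted p under 0.05 was reached by 11 higher and 2 lower in Ox1RΔSERT mice, 13.7% of those tested, near the background of 15.2% (10.2% higher and 4.96% lower). DESeq2 called 3, all higher, against 1.54% of all genes with an adjusted p that it called higher, and these were in the lists of phosphoinositide 3-kinase subunits and brakes. *Pik3cd*, a catalytic subunit typical of leukocytes, was at 2.14, 2.60, 2.12 and 2.18 in control mice and at 2.73, 8.59, 3.43 and 8.26 in Ox1RΔSERT mice, a log2 fold change of 1.35 (DESeq2 adjusted p = 0.0357, edgeR 0.316). *Pik3r5*, a regulatory subunit also typical of leukocytes, was at 2.26 to 4.09 in control mice, 3.84 and 4.13 in mice 11243 and 11613, and 20.5 and 20.4 in mice 11601 and 11708 (log2 fold change 1.92, DESeq2 adjusted p = 0.0322, edgeR 0.316). *Socs3*, a cytokine-induced inhibitor of receptor and adapter signalling, was at 4.53 to 17.0 in control mice, 18.8 and 19.3 in mice 11243 and 11613, and 48.1 and 43.0 in mice 11601 and 11708 (log2 fold change 1.68, DESeq2 adjusted p = 0.0292, edgeR 0.316). All 3 were highest in the mice with the highest leukocyte and fibroblast markers, and without these mice their log2 fold changes were 0.45, 0.31 and 0.92.

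Among the 17 brakes on insulin signalling, 13 were higher and 4 lower in Ox1RΔSERT mice, where 49.6% of all genes tested were lower. The median log2 fold change of the brakes was 0.16, or 0.10 without mice 11601 and 11708, and that of all genes tested was 0.0021. The lowest unadjusted p-values in edgeR after *Socs3* belonged to *Ptprf*, a receptor phosphatase (log2 fold change 1.56), and *Grb14*, an adapter that inhibits the insulin receptor (0.48), both with an adjusted p of 0.316. *Ptprf* was at 0.969 ± 0.11 (SD) in control mice and at 1.07, 5.76, 1.66 and 2.94 in Ox1RΔSERT mice, highest in mouse 11601, and without mice 11601 and 11708 its log2 fold change was 0.50. *Grb14* was at 23.7, 30.1, 32.2 and 36.1 in control mice and at 44.3, 45.3, 47.2 and 33.0 in Ox1RΔSERT mice, and without mice 11601 and 11708 its log2 fold change was 0.59. Of the Ox1RΔSERT mice, 3 were above all control mice, and mouse 11708 lay among them.

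Of 4 tested receptors and ligands beside the insulin receptor, *Igf2r* had a log2 fold change of 0.36 and *Igf1* of 1.21, the latter 0.30 without mice 11601 and 11708, and *Igf1r* had 0.17. *Insrr* was at 1 count or fewer. Among 10 tested adapters, *Gab1* was at 0.42 and *Sos1* at -0.20, and *Irs3*, an adapter found in rodent fat, was at 0.06. Without mice 11601 and 11708, *Gab1* was at 0.26 and *Sos1* at -0.08. *Irs4* was at 0 counts in all 8 mice. *Pik3cg* had a log2 fold change of 0.94, or 0.07 without mice 11601 and 11708. None of these genes had an adjusted p under 0.05 in edgeR or DESeq2.

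Downstream of the kinases, list medians lay between -0.12 and 0.01, and without mice 11601 and 11708 between -0.07 and 0.03. The 7 genes of Akt activation and mTORC2 had a median of -0.11, with *Prr5* at 0.45, *Rictor* at -0.15 and *Mapkap1* at -0.14. Without these mice the median was 0.01, with *Prr5* at 0.27, *Rictor* at -0.22 and *Mapkap1* at 0.01. The 12 genes of the mTORC1 and glycogen arms had a median of -0.12, with *Gsk3b* at -0.21, *Rheb* at -0.22 and *Rps6kb1* at -0.13. Of the 12, 9 were lower, against 49.6% of all genes tested. Without mice 11601 and 11708 this median turned to 0.03. *Rps6kb1*, the S6 kinase gene, was at 41.8 to 43.4 in control mice and 35.4 to 41.0 in Ox1RΔSERT mice, without overlap. The 19 genes of GLUT4 vesicle traffic had a median of -0.01, with *Lrp1* at 0.48, *Stxbp3* at 0.37 and *Sort1* at -0.24. Without the same 2 mice these genes were at 0.21, -0.03 and -0.06, respectively. *Stx4a*, the syntaxin at which GLUT4 vesicles fuse, was at 28.5 to 31.2 in control mice and 31.8 to 34.0 in Ox1RΔSERT mice, a log2 fold change of 0.12 without overlap. With *Pik3cd* and *Socs3*, 4 of the 95 genes had no overlap between groups, 3 of them higher, against 5.50% of all genes tested (2.69% higher and 2.81% lower).

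FoxO factors and genes described as their targets lay on both sides of 0. Of 17 tested, 9 were higher and 8 lower, with a median of 0.01, or -0.07 without mice 11601 and 11708. *Txnip*, an inhibitor of glucose uptake, was at 694, 636, 770 and 587 in control mice and at 1127, 752, 1065 and 757 in Ox1RΔSERT mice, a log2 fold change of 0.46. Mice 11243 and 11613 were above all others, and without mice 11601 and 11708 the log2 fold change was 0.71. *Bcl6*, a transcriptional repressor, was at 100.3, 90.2, 104 and 108 in control mice and at 53.5, 92.3, 72.8 and 86.03 in Ox1RΔSERT mice, a log2 fold change of -0.40, or -0.67 without those 2 mice. Both had an adjusted p of 0.316 to 0.319 in edgeR. *Sod2* was at -0.31, *Foxo3* at 0.04, *Pck1* at 0.02 and *Pdk4* at 0.40, and without those mice at -0.11, -0.12, 0.27 and 0.59. *Igfbp1*, *G6pc* and *Foxo6* were removed by the filter on low counts. In Ox1RΔSERT mouse 11708, however, *Igfbp1* was at 7.79 and *G6pc* at 1.32. In the other mice they were at 0.493 or less and 0.138 or less.

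**Figure D5:**
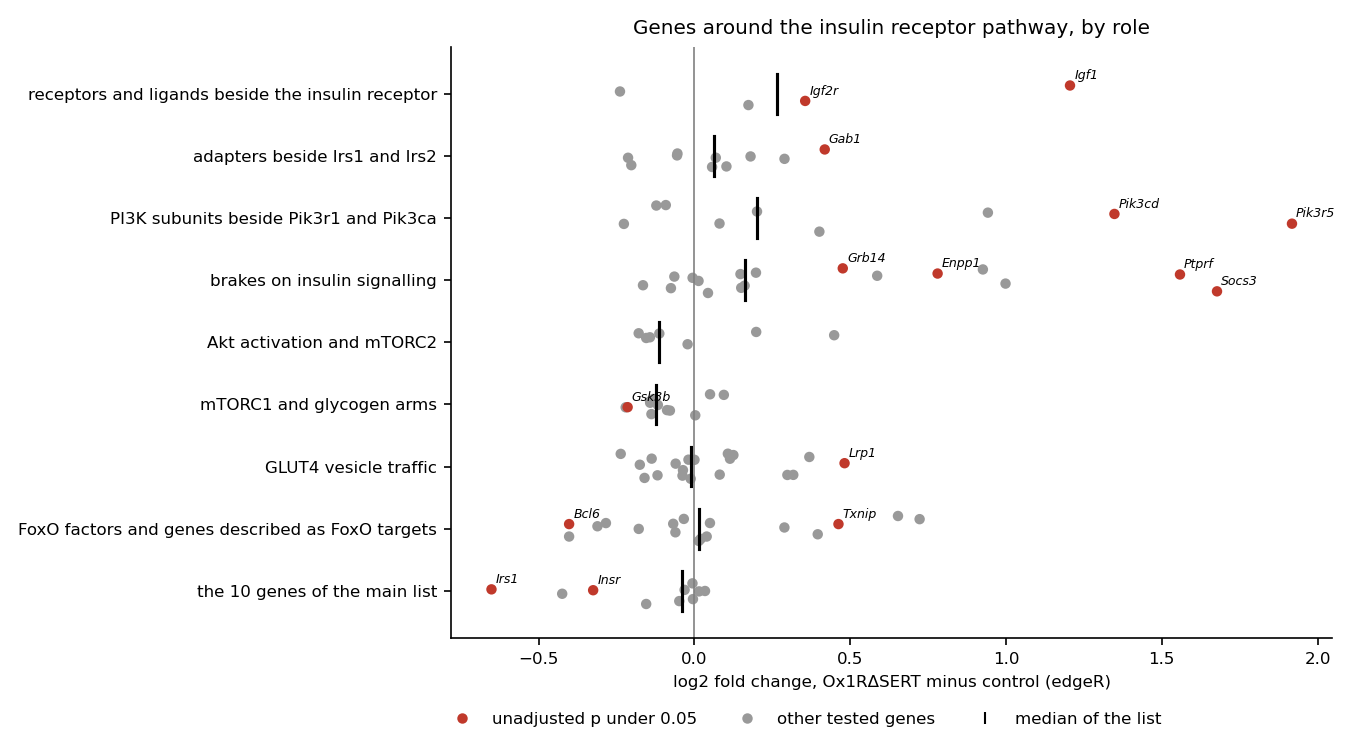
Log2 fold change, Ox1RΔSERT minus control, of each tested gene of the 8 lists and of the 10 genes of the main list, with genes at an unadjusted edgeR p under 0.05 in red and list medians as black bars. The largest values belong to *Pik3r5* at 1.92, *Socs3* at 1.68 and *Ptprf* at 1.56, and list medians lie between -0.12 and 0.26.

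Across the 8 mice, likeness to each gene was described by Pearson's r of log2 normalized values, which share libraries and scaling and carry no test. *Insr* was most like *Cnr1* (r = 0.985), *Isca1* (0.978) and *Pex19* (0.977). *Irs1* was most like *Gas1* (0.971), *Gm10603* (0.964) and *Esrrb* (0.955). *Slc2a4* was most like *Pfkfb3* (0.981), the gene of a glycolytic regulator, *Lrrc51* (0.975) and *Fastk* (0.964). *Irs2* was most like *Hipk3* (0.976), *Pik3ca* like *Atp13a3* (0.986), *Pik3r1* like *Tmem219* (0.973), *Akt1* like *Pcsk6* (0.96), *Akt2* like *C920021L13Rik* (0.991), *Tbc1d4* like *3300002I08Rik* (0.977) and *Foxo1* like *Klhl2* (0.972). Within the 10 genes, the highest r were between *Irs1* and *Slc2a4* (0.84), *Pik3r1* and *Akt2* (0.81) and *Insr* and *Slc2a4* (0.79), and the lowest was between *Pik3ca* and *Akt2* (-0.69).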

How the data were processed

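BAT RNA of 8 mice was measured. Per the labels, libraries were stranded and poly-A selected, and the authors quantified genes with Salmon 0.14.1 on GRCm38 and deposited estimated counts, not normalized, and TPM, normalized for transcript length. The annotation release and strand setting are not given in the sources used here. The submitters' processing notes also list STAR and DESeq2 1.26.0. Symbols came from GENCODE M21 (44118 of 44674 identifiers).

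Estimated counts were rounded. edgeR 4.0.16 (filterByExpr, TMM, glmQLFit, glmQLFTest, R 4.3.3) compared genotypes without covariates, two-sided, with Benjamini-Hochberg adjustment over all tested genes and a threshold of 0.05. SEs came from the F statistic and 95% intervals from its degrees of freedom. Alternatives included DESeq2 1.42.0, voom and trend fits of limma 3.58.1, other scalings and filters, and each mouse left out. Exact permutation tests (scipy 1.17.1) used all 70 assignments. Log2 values of single mice used a pseudocount of 0.1. Named genes were all 10 members, the 3 lowest p of each list, genes called by a tool, ratio genes, overlapping genes and the 3 genes most like each member; of the last, only the first is given for 7 members. *Igf1r*, *Pck1*, *Pdk4*, *Stx4a* and *Irs3* were added after their values were seen, and some genes are not reported here. Members and lists were chosen with earlier results of these data known. Labels call the mice separate animals but give no litter or batch. Scripts were tested on simulated data.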

Additional observations from a re-analysis of the deposited data

Results flagged for a closer look

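In 52 groups of 4 mice (normalized values and effective lengths of the 10 genes and the 6 TPM ratios), 7 held a mouse far from the other 3 by Dixon's criterion (the gap to the nearest mouse, divided by the range of the group), and chance flags about 1 in 20. Control mouse 10684 had a normalized *Akt2* value of 328, against 233 to 236 in the other control mice, and an *Akt2*/*Akt1* TPM ratio of 3.54, against 2.28 to 2.48. Control mouse 11253 had a normalized *Foxo1* value of 105, against 84.2 to 85.4. The other 4 were relative effective lengths, at 0.972 for *Insr* in Ox1RΔSERT mouse 11613, 1.00 for *Irs1* in Ox1RΔSERT mouse 11601, 0.991 for *Foxo1* in control mouse 10684 and 0.981 for *Foxo1* in Ox1RΔSERT mouse 11613, each within 3% of the other mice of its group.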

How the results depend on the processing

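edgeR called 0 genes and 0 of the 10 in each setting run with it, whereas DESeq2 called 265 genes, and with 1 mouse left out 373 (10684), 247 (11253), 17 (11560), 49 (11563), 1516 (11243), 17 (11601), 936 (11613) and 19 (11708), with *Irs1* the 1 member called in 2 of those fits. With 4 mice against 3, exact permutations cannot pass the threshold. The number of members lower in Ox1RΔSERT mice was 8, ranged from 5 to 9 with each mouse left out, and was 4 without mice 11601 and 11708 and 2 on log2(TPM + 1), where the median of the 10 genes was 0.26 and that of all genes 0.23. *Irs1* and *Slc2a4* kept their sign in every setting, and *Insr* in all but one, but on log2(TPM + 1) *Irs1* moved from -0.65 to -0.19 and *Slc2a4* from -0.42 to -0.09, and against the geometric mean of 4 adipocyte genes *Insr* moved from -0.33 to -0.17 and *Foxo1* from -0.15 to -0.01. Relative to the median of all genes tested, *Irs1* was at -0.42 and *Slc2a4* at -0.33 on log2(TPM + 1). Against the adipocyte genes, the median of all genes tested was itself 0.16 higher in Ox1RΔSERT mice. The cause was not tested for any change below. DESeq2 with each mouse left out, the fits without mice 11601 and 11708 and limma on effective length were added after the data had been seen.

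Log2 fold changes that turned sign on log2(TPM + 1) were 0.011 for *Insr*, 0.24 for *Irs2*, 0.60 for *Pik3ca*, 0.33 for *Akt2*, 0.27 for *Tbc1d4* and 0.15 for *Foxo1*. Relative to the median of all genes tested on this scale, 0.23, they were -0.22, 0.012, 0.37, 0.099, 0.042 and -0.077, so *Insr* and *Foxo1* stayed below it. Against the geometric mean of 4 adipocyte genes, the median of all genes tested was 0.16. On that reference the fold changes that turned sign were 0.14 for *Irs2*, 0.12 for *Pik3ca*, 0.13 for *Akt2* and 0.18 for *Tbc1d4*, and with transcript length as an offset 0.34 for *Pik3ca*. With at least 10 counts in every mouse they were 0.0028 for *Irs2* and 0.0022 for *Tbc1d4*, with voom 0.023 for *Tbc1d4*, and for *Akt1* -0.0037 with upper-quartile scaling and -0.0085 without a filter. Without mice 11601 and 11708 they were 0.19 for *Irs2*, 0.15 for *Akt2*, 0.050 for *Tbc1d4* and 0.071 for *Foxo1*. With 1 mouse left out, *Irs2* turned to 0.15, 0.092, 0.10 and 0.16 (without 11560, 11563, 11243 and 11708), *Pik3r1* to -0.092, -0.16 and -0.14 (11253, 11563, 11613), *Pik3ca* to 0.0048 (11563), *Akt1* to -0.0067, -0.023 and -0.043 (10684, 11253, 11601), *Akt2* to 0.10, 0.037 and 0.020 (10684, 11601, 11708) and *Tbc1d4* to 0.096, 0.078, 0.0085 and 0.048 (10684, 11253, 11613, 11708).

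Among log2 ratios, *Pik3r1*/*Pik3ca* turned to 0.15 in counts, 0.23 without mouse 10684 and 0.032 without mice 11601 and 11708. *Akt2*/*Akt1* turned to 0.13, 0.14 and 0.21 without mouse 10684, mouse 11601 and both 11601 and 11708, and *Foxo1*/*Foxo3* to 0.18 without the latter pair. Log2 effective lengths turned to -0.012 for *Irs2*, -0.014 for *Akt1* and 0.0048 for *Foxo1* (without 11613), 0.015 for *Pik3r1* (11253), and 0.014 and 0.031 for *Slc2a4* (without 11601, and without 11601 and 11708).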
